A study of Mus musculus with 6 samples.

Results

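The RNA of 10 genes of the YAP/TAZ-TEAD transcription module was followed in 4T1, a mouse mammary carcinoma line that stands in for triple-negative breast tumours in many laboratories. They are the coactivator genes Yap1 and Wwtr1 (which encodes TAZ), the DNA-binding partner genes Tead1, Tead2, Tead3 and Tead4, and 4 genes described as direct targets, Ccn1, Ccn2, Ankrd1 and Amotl2. They were chosen by name, with earlier results of these data known, as were the further gene lists below. Counts of genes called in these sets are descriptions only. Listed transcripts were summed for each gene, which gives 10 of the 26094 genes in the table. All 10 reached 1 FPKM in 3 or more of the 6 libraries and so belonged to the 11842 genes tested. FPKM are fragments per kilobase of transcript and per size of the library, a level scaled for transcript length and library size.

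RNA sequencing was done on 6 libraries. In 3 of them, Limch1_OE, the 4T1 cells were a stable line carrying the lentiviral plasmid pLVX-IRES-neo with mouse Limch1. In the other 3, Vector, the cells carried the empty plasmid. Both lines shared virus packaging in HEK293T, a human embryonic kidney line, and antibiotic selection. Whether a line was 1 clone or a pool is not given in the sources used here. Sample titles gave the groups; a second label field counts the names of gene and line upwards through the series and was not used. The labels do not say that libraries came from separate infections or cultures, so p-values rest on the spread of these libraries alone, which could be technical.

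YAP and TAZ carry no DNA-binding domain of their own and act on genes mainly through the TEAD proteins. Phosphorylation through the Hippo kinases MST and LATS keeps YAP and TAZ in the cytoplasm. Low Hippo signalling, spread cell shape and actomyosin tension favour the nucleus. LIMCH1 has been described as an activator of non-muscle myosin II in human cells. YAP and TAZ are controlled largely by phosphorylation, location and protein stability, none of which RNA levels measure. In mammary carcinoma cells TAZ and YAP are known for roles in growth, migration and stem-like traits.

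Limch1 itself was at 23.96, 23.31 and 25.69 FPKM in Limch1_OE and at 0.25, 0.15 and 0.10 FPKM in Vector. Across all tested genes, 2388 (20.2%) rose and 1706 (14.4%) fell by limma at a Benjamini-Hochberg adjusted p under 0.05, 34.6% in either direction. After trimmed mean of M values scaling the split was 1856 rose and 2082 fell. Mammary epithelial markers Krt8, Krt18, Krt19, Epcam, Cdh1 and Krt14 were present, summing to 1212 to 1341 FPKM in Limch1_OE and 1291 to 1334 FPKM in Vector, with Epcam and Cdh1 lower in Limch1_OE. Of the leukocyte markers 1, Cd68, passed the filter, and it rose, while Ptprc and Itgam were at or below 0.03 FPKM in every library. Summed fibroblast markers were at 1.78 to 2.02 FPKM in Limch1_OE and at 1.33 to 1.62 FPKM in Vector. Nearly all of that sum was Pdgfra, which did not pass the test (limma adjusted p = 0.0881). Col1a1, Col3a1 and Dcn were at or below 0.07 FPKM in every library. Summed endothelial markers were at 0.15 to 0.32 FPKM in Limch1_OE and at 0.33 to 0.43 FPKM in Vector. Adipocyte and muscle markers reached at most 0.08 FPKM in Limch1_OE and at most 0.02 FPKM in Vector. The mitochondrial share of summed FPKM was 6.31 to 8.73% in Limch1_OE and 4.76 to 5.57% in Vector, and nuclear Malat1 was at 77.59 to 91.46 FPKM in Limch1_OE and 40.23 to 45.19 FPKM in Vector. The part of these differences in the results below was not tested.

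Of the 10 genes 3 rose in Limch1_OE (Tead1, Tead3 and Ankrd1), 3 fell (Wwtr1, Tead4 and Ccn2) and 4 did not pass the test (Yap1, Tead2, Ccn1 and Amotl2). That is 6 of 10, beside 34.6% of all tested genes. The 3 Limch1_OE libraries lay above all Vector libraries for 3 of the genes and below them for 4, where 28.6% and 20.5% of all tested genes did so. Groups without overlap were thus seen for 7 of 10 genes and for 49.1% of all tested genes. The median log2 fold change of the 10 genes was 0.01, and that of all tested genes was 0.04. All log2 fold changes are Limch1_OE minus Vector on the log2(FPKM + 1) scale. Among all tested genes, 4.86% had a larger absolute change than Ccn2, 6.79% than Tead4, 10.1% than Ankrd1 and 13.6% than Tead1. The same share was 16.7% for Tead3, 40.2% for Wwtr1 and between 63.8% and 86.1% for the 4 genes that did not pass. In bulk RNA, fewer cells of a type and less RNA per cell cannot be told apart.

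**Figure D1:**
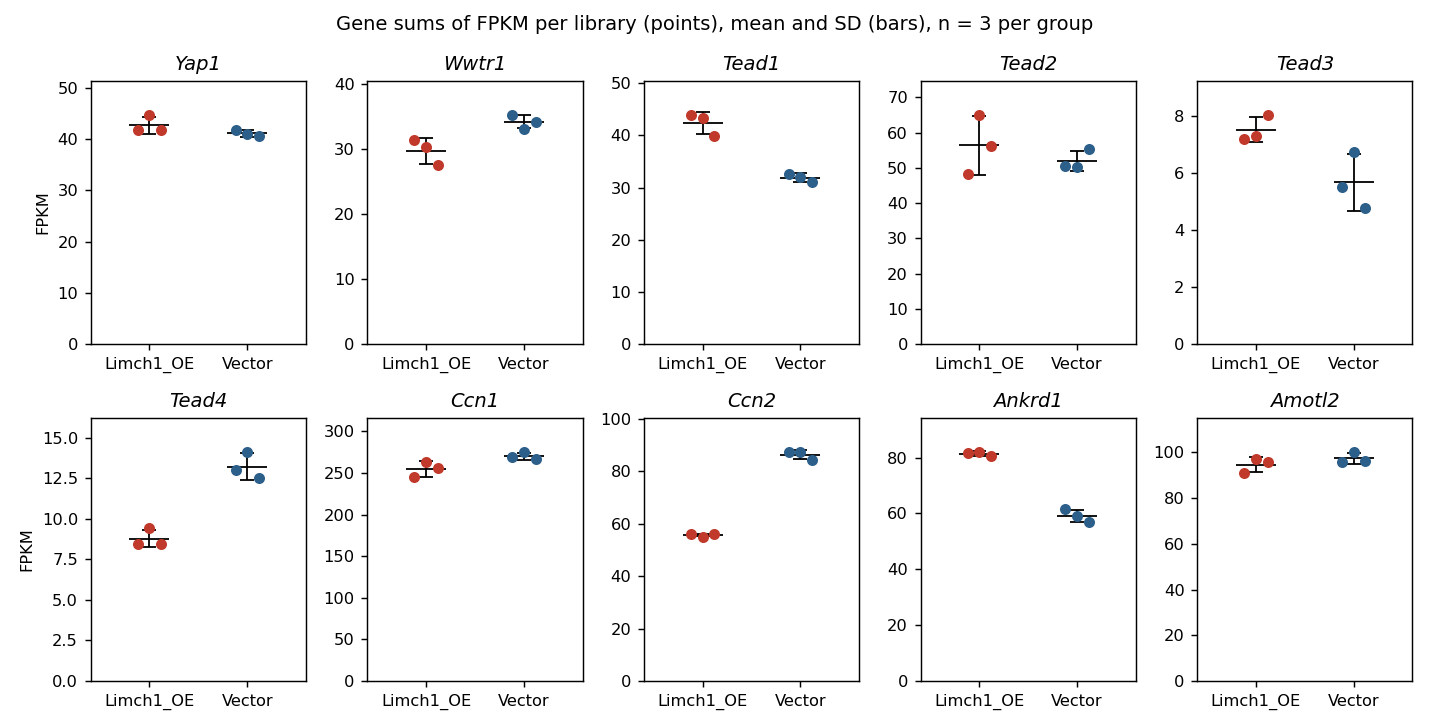
FPKM (linear axis from 0 in each panel) of the 10 genes in each library, with Limch1_OE left of Vector; points are libraries and lines are means with SD (n = 3 each). The 2 groups are separated for 7 of the 10 genes, and Yap1, Tead2 and Amotl2 overlap.

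The plot of levels by library shows the separation gene by gene and the wide spread of Tead2 in Limch1_OE. The plot of differences with their intervals shows the size of each change on 1 scale.

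**Figure D2:**
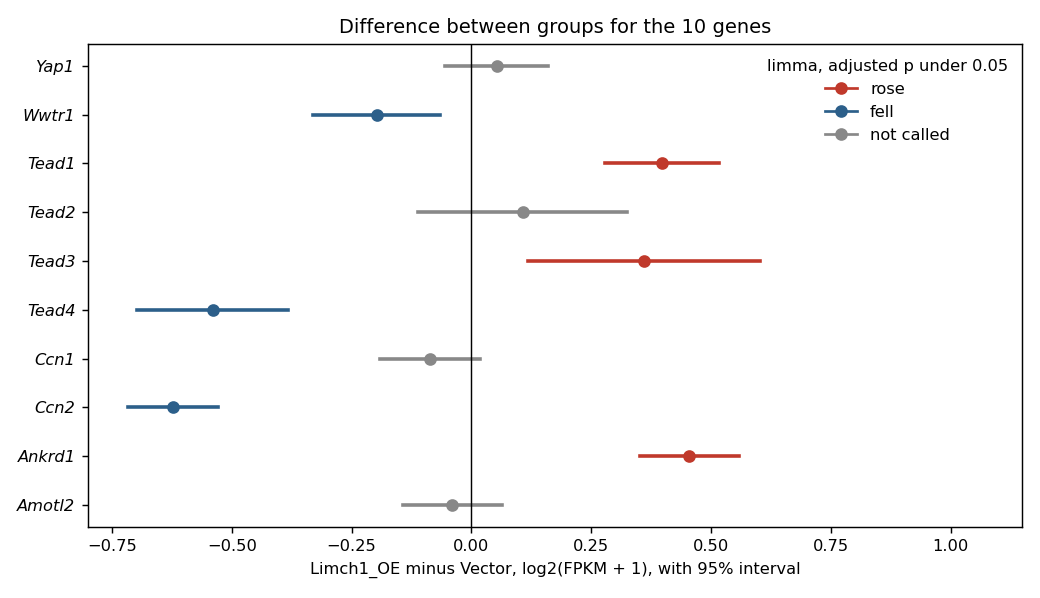
Difference Limch1_OE minus Vector on the log2(FPKM + 1) scale for each gene, with the limma 95% confidence interval; colour gives the call at an adjusted p of 0.05 over all tested genes. Ccn2 (-0.62) and Tead4 (-0.54) lie farthest below 0, and Ankrd1 (0.46) and Tead1 (0.40) farthest above it.

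Yap1 encodes YAP, a coactivator that the Hippo kinases hold back. Its RNA was at 41.81, 44.61 and 41.66 FPKM in Limch1_OE and at 41.77, 41.03 and 40.51 FPKM in Vector. The groups overlapped, and 1 Limch1_OE library stood above the other 5 libraries. The difference was 0.05 on the log2 scale (SE 0.05, 95% interval -0.05 to 0.16) and did not pass the test (limma adjusted p = 0.418). The interval includes small changes in either direction.

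Most Yap1 RNA was assigned to a pair of coding transcripts that differ by 1 exon. Yap1-202, with 1416 coding bases, held 80.6% of the gene's FPKM averaged over the 6 libraries, and Yap1-201, with 1464 coding bases, held 18.1%. The exon of 48 bases that only the longer transcript of the pair carries lies at chr9:7950492-7950539 on the minus strand of mm10 (GENCODE M21). It is shown because it is what tells the 2 YAP forms apart in this table:
Yap1-201 exon: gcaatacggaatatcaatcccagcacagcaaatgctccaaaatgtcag
The share of Yap1-201 was 20.21, 23.85 and 15.31% in Limch1_OE and 18.53, 13.97 and 16.02% in Vector. The 2 groups overlapped, so the use of this exon did not separate them.

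Wwtr1 encodes TAZ, the close relative of YAP. It was at 31.36, 30.31 and 27.58 FPKM in Limch1_OE and at 35.23, 33.20 and 34.25 FPKM in Vector. Every Limch1_OE library was below every Vector library. Wwtr1 fell by 0.20 on the log2 scale (SE 0.06, 95% interval -0.33 to -0.07, limma adjusted p = 0.0294). The call was near the threshold: it held in 8 of 16 alternatives, was lost without Limch1_OE replicate 2 or 3 or any 1 of the Vector replicates, and the adjusted p ranged from 0.0128 to 0.103. Nearly all of its RNA (98.9%) was assigned to 1 transcript, Wwtr1-201.

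Taken as a pair, Yap1 and Wwtr1 summed to 73.17, 74.92 and 69.24 FPKM in Limch1_OE and to 77.0, 74.23 and 74.76 FPKM in Vector. Yap1 made up 57.14, 59.54 and 60.17% of that sum in Limch1_OE and 54.25, 55.27 and 54.19% in Vector. The sums overlapped between the groups, and the Yap1 shares did not. Shares are given as a description, with no test.

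TEAD proteins bring YAP and TAZ to DNA, and all 4 family genes had RNA in these cells. Among them 1 of the more abundant genes, Tead1, and the least abundant, Tead3, rose, while Tead4 fell and Tead2 did not pass the test. Tead1 was at 43.82, 43.34 and 39.86 FPKM in Limch1_OE and at 32.62, 32.01 and 31.03 FPKM in Vector. The groups were well apart, with means (± SD, n = 3 each) of 42.3 ± 2.16 FPKM for Limch1_OE and 31.9 ± 0.802 FPKM for Vector, a ratio of 1.33. The log2 fold change was 0.40 (SE 0.05, 95% interval 0.28 to 0.52, limma adjusted p = 7.45e-04), and it passed the test in all 16 alternatives.

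Tead1-202 held 86.8% of Tead1 RNA and the transcript that the annotation ranks as principal, Tead1-201, held 4.11%. Tead1-202 lacks 2 coding exons of Tead1-201, which leaves 1233 in place of 1308 coding bases. They lie on the plus strand of mm10 at chr7:112841888-112841950 (63 bases) and chr7:112856053-112856064 (12 bases), as annotated in GENCODE M21. Tead1-203, with 4.94% of Tead1 RNA, has the same 1233 coding bases as Tead1-202 and so lacks both exons too. The exons are printed because the main Tead1 transcript of these cells does not carry them:
Tead1-201 exon of 63 bases: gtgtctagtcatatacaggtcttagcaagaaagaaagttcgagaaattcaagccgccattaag
Tead1-201 exon of 12 bases: gtaacaagcatg
The Tead1-202 share was 84.66 to 91.39% in Limch1_OE and 83.69 to 85.65% in Vector, so both groups were dominated by the same form.

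Tead4 moved the other way. It was at 8.47, 9.41 and 8.46 FPKM in Limch1_OE and at 13.01, 14.12 and 12.53 FPKM in Vector. All Limch1_OE libraries lay below all Vector libraries, with means (± SD, n = 3 each) of 8.78 ± 0.546 FPKM for Limch1_OE and 13.2 ± 0.816 FPKM for Vector, 1.51-fold lower in Limch1_OE. The log2 fold change was -0.54 (SE 0.07, 95% interval -0.70 to -0.38, limma adjusted p = 6.46e-04), and Tead4 passed the test in all 16 alternatives. Tead4-201 carried 78.6% of Tead4 RNA, and Tead4-203, which lacks an exon of 129 bases, carried 15.7%. Both were lower in every Limch1_OE library than in any Vector library. Tead4-201 was at most 7.17 FPKM in Limch1_OE and at least 9.74 FPKM in Vector. For Tead4-203 the margin was very small, with at most 1.85 FPKM in Limch1_OE and at least 1.87 FPKM in Vector.

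Tead2 had the highest level of the 4 TEAD genes. It was at 48.16, 64.86 and 56.21 FPKM in Limch1_OE and at 50.40, 50.35 and 55.23 FPKM in Vector. The Limch1_OE libraries held both the lowest and the highest value of the 6. The difference was 0.11 (SE 0.10, 95% interval -0.11 to 0.32) and did not pass the test (limma adjusted p = 0.423). Its transcripts Tead2-201 and Tead2-203 have the same 1335 coding bases, and the share of Tead2-203 was 37.04, 4.30 and 20.33% in Limch1_OE and 31.47, 34.26 and 3.01% in Vector. The shares ranged widely within both groups and overlapped.

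Tead3 was the least abundant, at 7.20, 7.30 and 8.01 FPKM in Limch1_OE and at 5.49, 6.74 and 4.78 FPKM in Vector. The groups did not overlap, by a margin of less than 1 FPKM. Tead3 rose by 0.36 on the log2 scale (SE 0.11, 95% interval 0.12 to 0.60, limma adjusted p = 0.0298). Much of this sum was not coding: retained-intron and other noncoding transcripts made up 25.42, 53.84 and 44.45% in Limch1_OE and 32.97, 12.01 and 47.49% in Vector. Protein-coding transcripts alone gave 5.37, 3.37 and 4.45 FPKM in Limch1_OE, against 3.68, 5.93 and 2.51 FPKM in Vector, which overlapped, and the log2 difference was then 0.14 (limma adjusted p = 0.71). The call on the full sum held in 9 of 16 alternatives and was lost without Limch1_OE replicate 2 or 3 or without Vector replicate 1 or 3.

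**Figure D3:**
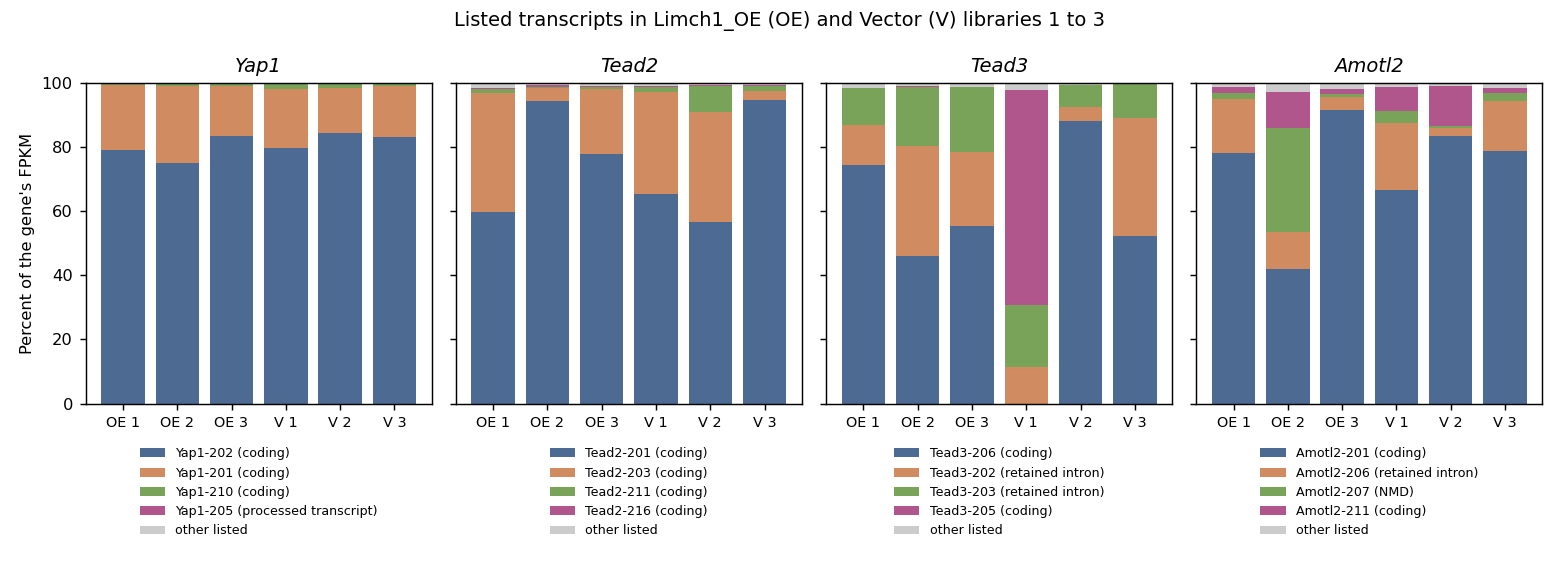
Share of each gene's summed FPKM by listed transcript (percent, stacked from 0 to 100) in each library, Limch1_OE left of Vector. The genes shown are Yap1, Tead2, Tead3 and Amotl2. Tead3-205 holds 67.03% in Vector replicate 1 and at most 0.25% elsewhere, and Amotl2-207 holds 32.53% in Limch1_OE replicate 2 and at most 3.58% elsewhere.

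The plot of transcript shares shows where the assignment of reads to transcripts varied between libraries of 1 group. Tead3-206 was the main coding form in 5 libraries but was listed at 0 in Vector replicate 1, where Tead3-205 stood at 3.68 FPKM. The annotated principal transcript Tead3-201 was listed at 0 in all 6 libraries.

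The 4 TEAD genes together summed to 107.6, 124.9 and 112.5 FPKM in Limch1_OE and to 101.5, 103.2 and 103.6 FPKM in Vector. Tead1 made up 36.9 ± 3.28% (SD, n = 3) of the sum in Limch1_OE and 31.0 ± 1.09% in Vector, and Tead4 made up 7.64 ± 0.198% in Limch1_OE, against 12.9 ± 0.792% in Vector. Tead2 was the largest part in every library, at 48.9 ± 3.71% in Limch1_OE and 50.6 ± 2.41% in Vector. The ratio of Tead1 to Tead4 was 5.17, 4.61 and 4.71 in Limch1_OE and 2.51, 2.27 and 2.48 in Vector, with no overlap.

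**Figure D4:**
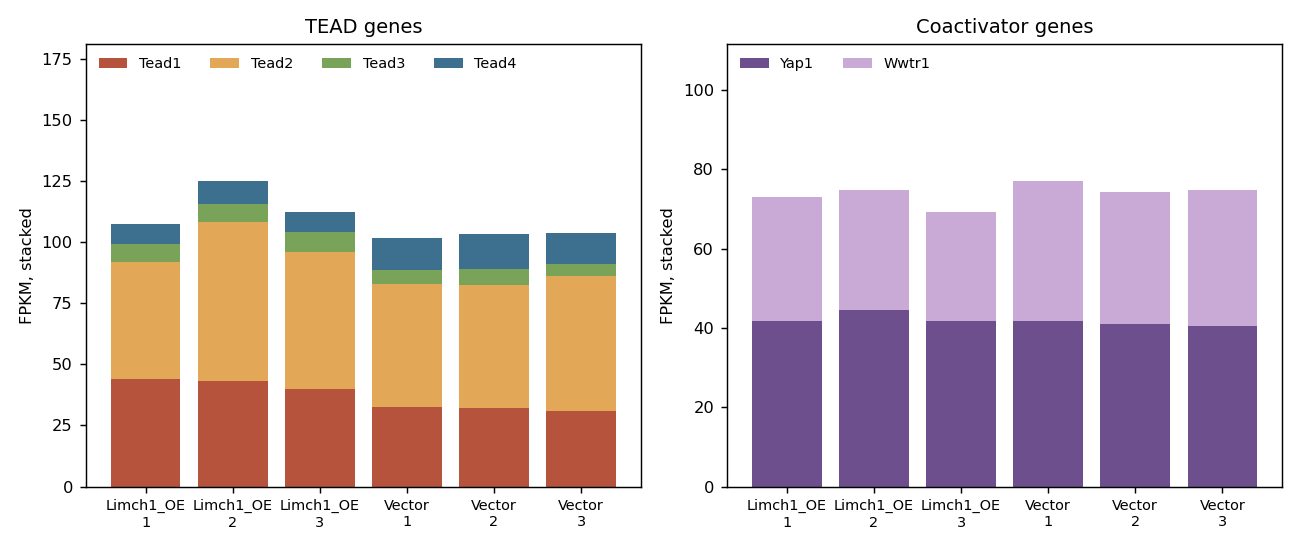
FPKM of the 4 TEAD genes and of Yap1 and Wwtr1, stacked from 0 in each library, Limch1_OE left of Vector; each segment is 1 gene and the bar height is the sum. The Tead4 share of the bar is 7.52 to 7.87% in Limch1_OE and 12.1 to 13.7% in Vector, and the Yap1 share is 57.14 to 60.17% in Limch1_OE and 54.19 to 55.27% in Vector.

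The plot of the makeup shows a larger Tead1 part and a smaller Tead4 part in each Limch1_OE library than in any Vector library. The Tead2 parts overlapped.

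The direct targets did not move as 1 block. Ccn2 encodes CTGF, a secreted matricellular protein that is among the most used readouts of YAP and TAZ and also responds to TGF-beta. It was at 55.97, 55.11 and 56.05 FPKM in Limch1_OE and at 87.36, 87.24 and 84.36 FPKM in Vector. The groups were far apart relative to their spread, with means (± SD, n = 3 each) of 55.7 ± 0.521 FPKM for Limch1_OE and 86.3 ± 1.70 FPKM for Vector, 1.55-fold lower in Limch1_OE. The log2 fold change was -0.62 (SE 0.04, 95% interval -0.72 to -0.53, limma adjusted p = 9.97e-06), the largest absolute change of the 10 genes. It stayed between -0.66 and -0.56 and past the threshold in all 16 alternatives.

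Ankrd1 encodes a nuclear and sarcomeric ankyrin-repeat protein and is an equally common readout of YAP and TAZ. It was at 81.77, 81.95 and 80.38 FPKM in Limch1_OE and at 61.39, 58.97 and 56.98 FPKM in Vector. It was higher in each Limch1_OE library than in any Vector library, with means (± SD, n = 3 each) of 81.4 ± 0.859 FPKM for Limch1_OE and 59.1 ± 2.21 FPKM for Vector, a ratio of 1.38. The log2 fold change was 0.46 (SE 0.05, 95% interval 0.35 to 0.56, limma adjusted p = 1.42e-04), and it passed the test in all 16 alternatives. Transcripts other than protein-coding ones held 9.82, 3.31 and 3.77% of Ankrd1 RNA in Limch1_OE and 2.60, 4.05 and 2.56% in Vector.

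These 2 standard readouts moved in opposite directions in the same libraries. The ratio of Ankrd1 to Ccn2 FPKM was 1.46, 1.49 and 1.43 in Limch1_OE and 0.703, 0.676 and 0.675 in Vector. Ankrd1 was the more abundant in every Limch1_OE library and Ccn2 in every Vector library.

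Ccn1 encodes CYR61, a relative of CTGF that is likewise used as a YAP and TAZ readout. It was the most abundant of the 10 genes, at 244.75, 262.85 and 256.56 FPKM in Limch1_OE and at 268.89, 275.25 and 266.90 FPKM in Vector. The Limch1_OE libraries all lay below the Vector libraries, but by little. The difference of -0.09 (SE 0.05, 95% interval -0.19 to 0.02) did not pass the test (limma adjusted p = 0.18). The ratio of Ccn1 to Ccn2 was 4.37, 4.77 and 4.58 in Limch1_OE and 3.08, 3.16 and 3.16 in Vector, so these 2 CCN genes did not differ between the groups in proportion.

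Amotl2 encodes an angiomotin, a junction protein that binds YAP and TAZ and holds them back, and its gene is also induced by them. It was at 91.22, 97.26 and 95.71 FPKM in Limch1_OE and at 95.99, 100.18 and 96.05 FPKM in Vector. The groups overlapped. The difference was -0.04 (SE 0.05, 95% interval -0.14 to 0.06) and did not pass the test (limma adjusted p = 0.529). The split between transcripts varied more than the sum, and Amotl2-201 held 78.05, 41.89 and 91.62% in Limch1_OE and 66.44, 83.42 and 78.81% in Vector. In Limch1_OE replicate 2, the nonsense-mediated decay transcript Amotl2-207 was listed at 31.64 FPKM, against 0.80 to 3.44 FPKM in the other 5 libraries. Protein-coding transcripts alone summed to 73.64, 53.98 and 90.88 FPKM in Limch1_OE and to 72.20, 96.78 and 78.32 FPKM in Vector, again overlapping.

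The order of the 10 levels differed between the groups in the places of Ccn2 and Tead1. In Limch1_OE the means ran Ccn1, Amotl2, Ankrd1, Tead2, Ccn2, Yap1, Tead1, Wwtr1, Tead4 and Tead3, and the libraries of Tead2 and Ccn2 overlapped, as did those of Yap1 and Tead1. In Vector the order was Ccn1, Amotl2, Ccn2, Ankrd1, Tead2, Yap1, Wwtr1, Tead1, Tead4 and Tead3, with no neighbours overlapping. Ankrd1 thus stood above Ccn2, and Tead1 above Wwtr1, in Limch1_OE, and the reverse held in Vector.

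Promoter windows, 250 bases before to 50 bases after a start site, came from a RefSeq table on GRCm38.p6, the mm10 assembly, and 10 windows of 7 of the 10 genes were used. Those of 3 target genes are shown so that the TEAD motif can be seen beside the direction of each gene. TEAD proteins recognise GGAATG, read on the other strand as CATTCC, and capitals mark these letters:
Ankrd1 (chr19:36119795-36120094, minus strand): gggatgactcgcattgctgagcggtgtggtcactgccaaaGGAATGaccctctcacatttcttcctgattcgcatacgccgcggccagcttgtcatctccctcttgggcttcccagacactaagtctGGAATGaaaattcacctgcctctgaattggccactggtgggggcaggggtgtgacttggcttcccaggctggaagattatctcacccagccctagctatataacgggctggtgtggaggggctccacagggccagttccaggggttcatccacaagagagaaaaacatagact
Ccn1 (chr3:145649936-145650235, minus strand): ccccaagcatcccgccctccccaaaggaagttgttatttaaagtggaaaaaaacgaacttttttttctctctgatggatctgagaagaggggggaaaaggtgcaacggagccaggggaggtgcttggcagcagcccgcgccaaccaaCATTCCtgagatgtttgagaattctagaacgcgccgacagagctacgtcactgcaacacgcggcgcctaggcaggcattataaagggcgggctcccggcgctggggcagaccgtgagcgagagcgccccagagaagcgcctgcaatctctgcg
Amotl2 (chr9:102717554-102717853, plus strand): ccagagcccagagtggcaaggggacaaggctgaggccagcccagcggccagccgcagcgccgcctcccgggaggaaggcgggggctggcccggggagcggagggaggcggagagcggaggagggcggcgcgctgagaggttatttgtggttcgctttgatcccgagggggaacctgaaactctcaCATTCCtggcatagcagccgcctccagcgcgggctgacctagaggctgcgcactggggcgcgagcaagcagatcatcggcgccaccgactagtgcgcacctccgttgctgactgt
The Ankrd1 window, of a gene that rose, held GGAATG at 2 places, 210 and 123 bases before the start. The Ccn1 window held CATTCC once, 103 bases before the start, and the Amotl2 window once, 65 bases before it, and neither gene passed the test. Promoters of Ccn2, Tead1 and Tead4 were not analysed here.

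On either strand GGAATG was found in 4817 of 32851 mouse windows of the same length (14.7%), and in 447 (1.36%) at 2 or more places. By gene the share was 4481 of 27025 (16.6%). It was in 8 of the 10 windows and in 6 of the 7 genes, counting overlapping windows of Wwtr1 and of Tead3 separately; the Tead2 window held none. The AP-1 motif TGANTCA, which is the same on both strands, was in none of the 10 windows and in 2565 (7.8%) of all windows. Genes with the motif included 1 that fell (Wwtr1), 2 that rose (Ankrd1 and Tead3) and 3 that did not pass (Yap1, Ccn1 and Amotl2). A match is a description of letters and not a measured binding site.

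Upstream of YAP and TAZ, none of the core kinase genes passed the test. Of 27 named Hippo pathway regulators 25 were listed and 23 tested, and 5 rose, 3 fell and 15 did not pass, with a median log2 fold change of 0.09. The 8 calls of 23 were close to the 34.6% called among all tested genes. Stk3 and Stk4, which encode the MST kinases, Sav1, their scaffold, and the LATS kinase genes Lats1 and Lats2 were among those that did not pass. Lats1 was at 22.95, 21.90 and 19.81 FPKM in Limch1_OE and at 22.36, 22.15 and 20.84 FPKM in Vector, and the groups overlapped. Lats2, which is also a YAP target, was at 12.95, 11.68 and 11.17 FPKM in Limch1_OE and at 13.18, 13.86 and 13.02 FPKM in Vector. All Limch1_OE libraries lay below all Vector libraries for Lats2 (-0.15, limma adjusted p = 0.111) and above them for Sav1 (0.13, 0.211), and the 95% interval was -0.30 to 0.00 for Lats2 and -0.04 to 0.29 for Sav1.

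The called regulators named by rule were 3 pairs of related genes. Mob1a and Mob1b encode the MOB1 cofactors of LATS: Mob1a fell (-0.31), with 43.14 to 47.93 FPKM in Limch1_OE and 53.96 to 59.02 FPKM in Vector, and Mob1b rose (0.37), with 8.02 to 10.05 FPKM in Limch1_OE and 6.86 to 6.97 FPKM in Vector. Stk38 and Stk38l encode the LATS-related NDR kinases: Stk38 rose (0.37) and Stk38l fell (-0.38). Taok2 and Taok3 encode TAO kinases, which act on MST: Taok2 rose (0.44) and Taok3 fell (-0.43). Outside the naming rule, Map4k4 (0.30) and Nf2 (0.14), which encodes merlin, also rose and are named after their values were seen. With only the most abundant transcript of each gene, the calls of Mob1b (0.33, limma adjusted p = 0.0515), Stk38 (0.63, 0.117) and Taok3 (-0.32, 0.109) were lost, and Map4k4 turned to -0.14 (0.842). The Stk38 call was also lost with protein-coding transcripts only (0.12), and Nf2 was called in none of the fits that left out 1 library.

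TEAD proteins also bind the vestigial-like cofactors, which compete with YAP and TAZ. Of 4 Vgll genes 3 were listed and 2 tested, and neither Vgll3 (0.14) nor Vgll4 (-0.07) passed. Among 8 relatives of the target genes 4 were tested and 3 rose, beside 20.2% of all tested genes. Ccn4, which encodes the matricellular protein WISP1, was at 7.75, 7.86 and 6.69 FPKM in Limch1_OE and at 2.37, 2.97 and 1.90 FPKM in Vector. It was 3.08-fold higher in Limch1_OE by mean FPKM, with a log2 fold change of 1.31 (SE 0.12, limma adjusted p = 8.44e-05). Ccn4 thus moved the opposite way from Ccn2. The other 2 were Ankrd23 (0.44), a relative of Ankrd1, and Amot (0.32), a relative of Amotl2, while Amotl1 was at -0.02 and did not pass. The Ankrd23 call was lost with no filter on low values (limma adjusted p = 0.0666), with the most abundant transcript (0.278) and with protein-coding transcripts only (0.184), and the Amot call with the most abundant transcript (0.124).

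**Figure D5:**
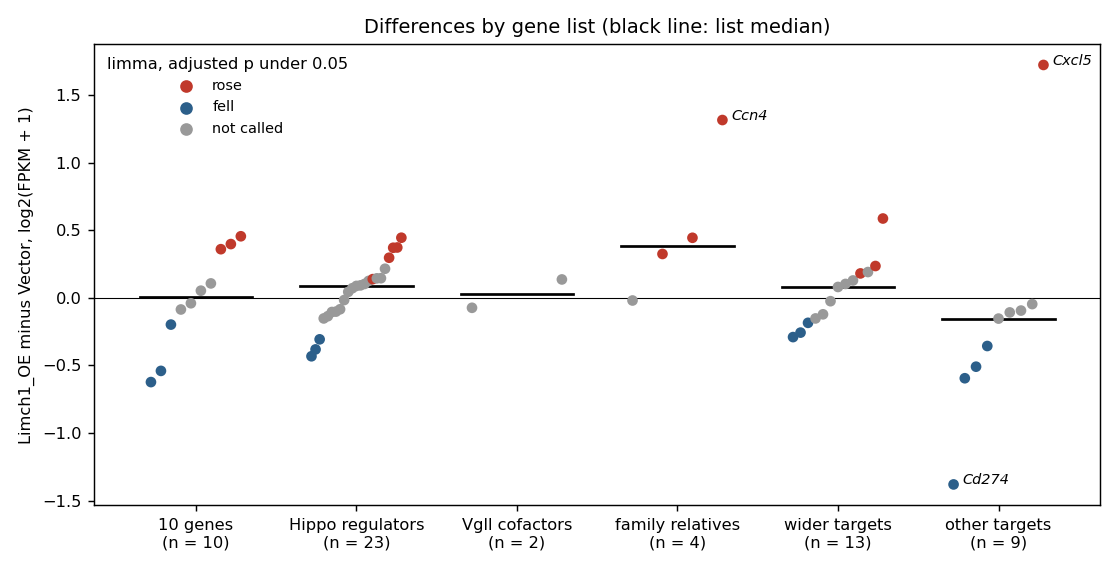
Difference Limch1_OE minus Vector on the log2(FPKM + 1) scale for every tested gene of each list, with the list median as a line; colour gives the limma call at an adjusted p of 0.05 over all tested genes. The medians of the lists lie between -0.15 (other reported targets) and 0.38 (family relatives), and that of all tested genes is 0.04.

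The plot of lists sets the module beside its upstream regulators and further targets. A wider list of YAP/TAZ targets, a published pan-cancer signature without the 10 genes, shared Lats2 and Ptpn14 with the Hippo regulators. It had 15 of 18 genes listed and 13 tested, of which 3 rose, 3 fell and 7 did not pass, beside 20.2% and 14.4% of all tested genes that rose and fell, with a median log2 fold change of 0.08. Tgfb2, the gene of a TGF-beta ligand, rose (0.59) at low levels. Its Vector libraries held 0.78, 0.48 and 0.49 FPKM, all under the 1 FPKM of the filter. Tgfb2 was therefore tested only because its Limch1_OE libraries, with 1.49, 1.36 and 1.26 FPKM, passed that level. The Tgfb2 call held with no filter on low values (0.59, limma adjusted p = 0.0191). Crim1 (0.24) and Asap1 (0.18) also rose. Axl, the gene of a receptor tyrosine kinase, fell (-0.29), at 249.52 to 258.95 FPKM in Limch1_OE and 303.43 to 313.87 FPKM in Vector, and so did Dock5 (-0.26) and Nt5e (-0.18), which encodes CD73. The calls of Crim1, Asap1, Dock5 and Nt5e were each lost when some 1 library was left out: the number that fell was 1 without Vector replicate 2.

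A further 9 genes that have been reported as YAP/TAZ targets were all tested, with a median log2 fold change of -0.15. Of them 1 rose and 4 fell, beside 20.2% and 14.4% of all tested genes. The list was chosen with earlier results of these data known. The counts are therefore a description and cannot show an excess of falling targets. Cxcl5, a neutrophil-attracting chemokine gene, rose (1.72), at 213.07 to 226.52 FPKM in Limch1_OE and 65.40 to 67.31 FPKM in Vector. Cd274, which encodes PD-L1, fell (-1.38), at 1.99 to 2.2 FPKM in Limch1_OE and 6.04 to 8.13 FPKM in Vector. The EGFR ligand gene Areg (-0.59), the survivin gene Birc5 (-0.51) and the cyclin D1 gene Ccnd1 (-0.36) also fell. Several of these genes answer to other pathways as well.

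Calls among all tested genes of the chromosome leaned the same way as each of the 6 genes that passed, on every chromosome concerned. On chromosome 6, which holds Tead4, 35 of 557 tested genes rose and 162 fell, with a median log2 fold change of -0.09. On chromosome 10 (Ccn2) 52 of 549 rose and 117 fell (median -0.04), and on chromosome 3 (Wwtr1) 69 of 578 rose and 132 fell (median -0.04). More genes rose than fell on chromosome 17 (Tead3), with 205 and 64 of 610 (median 0.13), on chromosome 19 (Ankrd1), with 129 and 42 of 428 (median 0.10), and on chromosome 7 (Tead1), with 198 and 110 of 883 (median 0.06). Among all tested genes 20.2% rose and 14.4% fell (median 0.04). The genes that did not pass lie on such chromosomes as well: Tead2 on chromosome 7, Ccn1 on chromosome 3, and Yap1 and Amotl2 on chromosome 9. On chromosome 9, 151 of 667 rose and 83 fell (median 0.07). The counts include the 10 genes themselves and come from the values without further scaling, where more of all tested genes rose than fell. After trimmed mean of M values scaling, 1856 of all tested genes rose and 2082 fell. Counts by chromosome were not made on that scaling, and no test was made of the counts by chromosome.

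For each of the 6 genes that passed the test, the tested genes whose centred log2 values over the 6 libraries were most like it were found among 11841 others by root mean square difference. They were Lrp11 (0.0247) and Etv4 (0.0328) for Ccn2, and Ttc39a (0.0219) and Mtss1 (0.0281) for Ankrd1. For Tead1 they were Eml3 (0.0184) and Cmtm4 (0.0194), for Tead4 Adgrf5 (0.0194) and Itprip (0.0254), for Tead3 Mpv17 (0.0306) and Tmem253 (0.0460), and for Wwtr1 Grk6 (0.0153) and Mkrn1 (0.0161). None of the 10 genes was among another's 2 nearest. Annotated genes that overlap the 10 on the genome and were listed had at most 0.25 FPKM in any library.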

How the data were processed

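Messenger RNA was sequenced from 3 Limch1_OE and 3 Vector libraries of 4T1 cells. The deposited table gives FPKM per transcript to 2 decimals, for 77865 transcripts, as computed by the authors. Per the submitters' processing notes, the tools were StringTie 2.2.1, featureCounts 2.0.1, STAR 2.7.10 and fastp 0.23.2, on mm10; the annotation release, strand use and handling of multi-mapping reads were not given in the sources used here. Without strand, reads of overlapping genes cannot be told apart, and reads shared by paralogs may be split.

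Since values are by transcript and the test was planned by gene, the transcripts listed for a gene were added up. GENCODE M21 matched 26033 of 26094 gene identifiers. Genes reaching 1 FPKM in 3 or more of 6 libraries entered limma 3.58.1 (R 4.3.3, lmFit, then eBayes with trend), two-sided, on log2(FPKM + 1). P-values were adjusted over all of them by Benjamini-Hochberg, and an adjusted p under 0.05 was called. This scale understates changes of low genes. The fit was tested on simulated data. An exact permutation test of 3 against 3 libraries cannot go below 0.1 and is not quoted per gene. The depth is unknown: at the best-fitting step, 25.7 to 27.3% of low values per library lay within 0.1 of a whole number of reads, so no reads could be recovered and no count test was run. Precision is the SD over 3 libraries.

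The members and lists were chosen with earlier results of these data known. Of the lists, 2 genes are not reported here and enter no list count. The text names the 10 genes, Limch1, up to 6 called genes per list with the largest absolute change, and the 2 tested genes most like each called member. Alternatives were other pseudocounts, filters, scalings and transcript sums, a replicate block, no intensity trend and each library left out.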

Additional observations from a re-analysis of the deposited data

How the results depend on the processing

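Tead1, Tead4, Ccn2 and Ankrd1 kept their direction and passed the test in all 16 alternatives. Wwtr1 kept its direction but not its call with no filter on low values (-0.20, limma adjusted p = 0.0683), with only the most abundant transcript of each gene (-0.20, 0.0765) and with no intensity trend (-0.20, 0.0516). Leaving out 1 library at a time gave -0.24 to -0.15 for Wwtr1 and 0.26 to 0.47 for Tead3. Tead3 lost its call with no filter (0.36, adjusted p = 0.106), with the most abundant transcript (0.88, 0.428) and with protein-coding transcripts only (0.14, 0.71), an alternative chosen after seeing the data. Of genes never called, Yap1 turned to -0.0024 with the most abundant transcript and Amotl2 to 0.012 with quantile normalization. Map4k4 turned to -0.14 with the most abundant transcript. With the most abundant transcript, 997 tested genes rose and 999 fell, and 1 Hippo regulator and 1 wider target rose. With protein-coding transcripts only, 1534 tested genes and 3 Hippo regulators rose. Leaving out 1 library gave 1 to 4 wider targets that fell. The causes of these changes were not tested.

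Deviations from the group means correlated at -0.00172, 0.0456 and 0.0592 for same-numbered libraries and at -0.0674 to 0.0271 for differently numbered ones. These values cannot decide whether libraries were prepared in pairs, because the deviations within a group depend on each other. With a replicate block 2219 tested genes rose and 1589 fell, and the calls of the 10 genes were the same, 3 rose and 3 fell. Depth is unknown, so no counting error can be given, and for Tead3, the lowest of the 10, the assignment to transcripts varied more than the gene sum.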
